A study of Homo sapiens with 5 samples.

Results

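The clustered histone genes are the gene copies, packed into clusters in the human genome, that encode the linker histone H1 and the core histones H2A, H2B, H3 and H4. Of 26475 rows in the table of counts, 73 carried a symbol of the HIST1H to HIST4H type, and the 26 of these with a total of 10 or more counts over the 5 libraries are described here as members. They comprised 2 of 6 H1 rows, 6 of 18 H2A rows, 9 of 20 H2B rows, 4 of 14 H3 rows and 5 of 15 H4 rows. All 26 belonged to HIST1 or HIST2. Of the other rows, 27 had no count in any library and 20 had a few counts with a total under 10. HIST1H3B and HIST1H3C stood just inside the rule with 10 counts each, whereas HIST2H3A and HIST2H3C with 9.9 each and HIST1H2AJ with 9.13 stood just outside it.

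Core histones form the octamer around which DNA is wound, and H1 binds the DNA between nucleosomes. Most clustered copies are transcribed mainly in S phase, when new DNA is packaged, and their messages end in a conserved stem-loop bound by SLBP instead of a poly(A) tail. Some copies can also be read through to a downstream poly(A) signal, which gives polyadenylated messages that are known from differentiated and slowly dividing cells. HIST1H1C, HIST1H2AC, HIST1H2BD, HIST1H2BK and HIST2H2BE are well documented members of this second kind. Library kits that capture mRNA by its poly(A) tail, as mRNA kits commonly do, recover the first kind poorly, so levels here need not follow the total amount of histone mRNA.

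Gene expression was measured by RNA sequencing in MDA-MB-231, an established human line of triple-negative breast cancer, with libraries from an mRNA kit and 1 library per condition. Oxygen was set to 1% or 20% O2 and cells were taken after 1 day and after 10 days of each. Reoxygenated cells came from 10 days at 1% O2 and then spent 10 more days at 20% O2. The series asks how acute low oxygen differs from chronic low oxygen and what is left once oxygen returns. No replicates existed, so pairwise differences compare libraries and have no replicate check. The reoxygenated cells had also spent more days in culture than any other cells.

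The 5 libraries held 7719797 to 12544953 counts, so that 1 count corresponded to 0.0829 to 0.123 CPM, the unit of counts scaled to 1 library size with TMM factors, and an absence of counts allowed up to 3 counts. Members held 1842 to 2920 counts per library, of which 79.0% to 85.6% fell on the 5 members with documented polyadenylated forms. NDRG1, a hypoxia-induced gene, had 553 CPM at 1% O2 against 64.7 CPM at 20% O2 on day 1, and 3888 CPM at 1% O2 against 84.1 CPM at 20% O2 on day 10, which fits the oxygen labels. All 8 markers expected in this line had 10 or more counts, although SPARC reached only 10 to 15 counts per library. Of 5 markers expected to be low, ESR1, PGR and CDH1 had 6, 13 and 35 counts in all, whereas EPCAM had 961 and ERBB2 had 2437. In a list for luminal breast cells that repeats ESR1, PGR and CDH1, KRT18 stood at 344 to 481 CPM and KRT8 at 254 to 470 CPM. GATA3 and FOXA1 of that list had 450 and 42 counts in all. In a list of 14 genes that mark fibroblasts, endothelium, blood or liver, CD3E had no count in any library and 8 had 10 or more counts in all. Their summed level was 41.7 CPM after 10 days at 1% O2, against 17.1 CPM after 10 days at 20% O2, with 19.7 CPM in reoxygenated cells, 13.1 CPM after 1 day at 1% O2 and 13.8 CPM after 1 day at 20% O2. PDGFRB, CDH5, CD14 and PTPRC were called higher after 10 days at 1% O2 (called as defined with the first differences). That was 4 of the 8, with 0 called lower, where 13.1% and 6.85% of all rows were. CDH5 had 14 counts against 4 in that pair. COL1A1 (0.90) and VWF (0.97) were not called, and LUM (−0.41) and PECAM1 (−0.29) lay below 0. The part of these markers in the results below was not tested.

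All 26 members were found in the GENCODE 29 annotation of GRCh38, 17 of them on chromosome 6 and 9 on chromosome 1. A search of annotated transcripts for the histone stem-loop motif found it in at least 1 transcript of 14 members, against 0.173% of all 206694 transcripts. Of the 12 members without it, 8 had no model with a base past the end of the coding sequence and so could not show it. Stem-loops of members that the results turn on are shown with 5 bases on each side, the stem-loop in capitals, since they mark the end of the replication-type message.
HIST1H2BD, form of 1 exon: ccaaaGGCTCTTTTAAGAGCCacgca
HIST2H2BE: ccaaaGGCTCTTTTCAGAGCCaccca
HIST1H2AC, form of 1654 bases: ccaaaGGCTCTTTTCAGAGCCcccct
HIST2H2AA3: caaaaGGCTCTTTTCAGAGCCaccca
HIST1H4H: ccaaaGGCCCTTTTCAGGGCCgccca
HIST2H4A: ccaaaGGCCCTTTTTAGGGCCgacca

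The stem-loop letters were shared by HIST2H2BE, HIST1H2AC and HIST2H2AA3, and the H4 genes differed from these in the stem. HIST2H4A differed from them in a loop letter too, and HIST1H2BD differed in a loop letter alone. What followed the stem-loop differed between the genes. In HIST2H2BE the single annotated transcript of 2194 bases ran on for 1729 bases past the stem-loop, and in that form of HIST1H2AC a further 1114 bases followed it. HIST1H2BD had a transcript of 1 exon and 496 bases with the stem-loop near its end, and a second transcript of 2 exons and 789 bases in which the motif was not found. In HIST2H2AA3 the annotated message ended 35 bases after the stem-loop. Long stretches past it were also annotated in members outside the group with documented polyadenylated forms. They had 1761 bases in HIST1H2AG, 1479 in a form of HIST2H2BF and 769 in HIST1H3H. Forms of HIST1H4H had 18 to 1655 bases there, and forms of HIST2H4A had 194 to 1167. Within that group, the models of HIST1H1C and HIST1H2BK had 0 bases past the coding sequence. The counts are given per gene, so the forms of one gene cannot be told apart in these data.

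The 250 bases before the transcription start, from RefSeq for GRCh38.p14, are shown for the 3 H2B members with the most counts, because their levels parted after 10 days at 1% O2. Capitals mark the CCAAT box, the TATA box letters TATAAA and the octamer ATTTGCAT, each on either strand, and overlapping matches run together.
HIST1H2BD (H2BC5), plus strand, chr6:26157871-26158120: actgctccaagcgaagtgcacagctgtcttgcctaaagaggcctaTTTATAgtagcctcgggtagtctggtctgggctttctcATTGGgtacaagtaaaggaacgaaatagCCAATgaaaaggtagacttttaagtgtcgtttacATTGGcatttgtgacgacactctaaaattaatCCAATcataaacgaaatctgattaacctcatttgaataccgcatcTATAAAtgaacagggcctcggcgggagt
HIST2H2BE (H2BC21), minus strand, chr1:149886683-149886932: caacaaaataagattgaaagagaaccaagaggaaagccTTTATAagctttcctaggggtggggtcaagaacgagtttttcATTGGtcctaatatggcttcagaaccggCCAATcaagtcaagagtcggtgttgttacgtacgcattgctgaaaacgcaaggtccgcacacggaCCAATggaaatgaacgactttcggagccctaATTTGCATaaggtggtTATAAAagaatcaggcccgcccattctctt
HIST1H2BK (H2BC12), minus strand, chr6:27146859-27147108: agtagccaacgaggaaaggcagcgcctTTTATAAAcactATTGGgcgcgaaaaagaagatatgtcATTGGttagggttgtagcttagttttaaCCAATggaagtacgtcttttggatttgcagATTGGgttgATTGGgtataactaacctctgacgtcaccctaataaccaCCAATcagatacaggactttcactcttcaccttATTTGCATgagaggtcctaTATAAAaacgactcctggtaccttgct

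Motifs were searched in windows from 250 bases before to 50 bases after the start, which the RefSeq table held for 17 members. CCAAT was in 14 of the 17 members' windows, against 34.6% of 35116 windows of all genes, and was in all H1, H2A, H2B and H3 members that had one. TATAAA was in 11 of 17, against 11.5%. The octamer ATTTGCAT, the site named for OCT1 (POU2F1) in H2B promoters, was in 9 of 17, against 1.77%, and these were all 4 H2A members and 5 of 7 H2B members. HIST1H2BD lacked these 8 letters, while HIST2H2BE and HIST1H2BK each held them 1 time. ACGTG and GCGTG, the core letters of the hypoxia response element, were in 4 and 2 of 17, against 21.4% and 36.5%, and in none of the 3 promoters shown. HIST2H2BE lies head to head with HIST2H2AC, HIST1H2BC with HIST1H2AC, and HIST1H2BJ with HIST1H2AG, so that each pair shares most of its window. The windows of HIST2H4A and HIST2H4B are identical. Sites in shared stretches are counted for both members, so the 17 windows are not independent.

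Summed over all members, the clustered histone genes reached 281 CPM after 10 days at 1% O2, against 165 CPM after 10 days at 20% O2. The difference of the summed counts was 0.77 on the log2 scale, with an exact 95% interval of the count ratio of 0.69 to 0.85 that covers counting error only. After 1 day the sums were 257 CPM at 1% O2 and 269 CPM at 20% O2, a log2 difference of −0.06 (−0.14 to 0.01), and reoxygenated cells had 227 CPM. The 20% O2 library of day 10 was thus the low one, 0.71 below the 20% O2 library of day 1 (−0.79 to −0.62), a gap between 2 libraries at the same oxygen almost as large as the chronic difference. Of the 10 members with 100 or more counts, 7 were lowest in it. Among the 7 are HIST2H2AA3 and HIST2H2AA4, whose rows held equal values and amount to 1 measurement. Set against the 20% O2 library of day 1 instead, a comparison added after the data were seen, the 1% O2 library of day 10 differed by 0.06. In bulk RNA, fewer cells that carry a message and less of it per cell cannot be told apart.

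**Figure D1:**
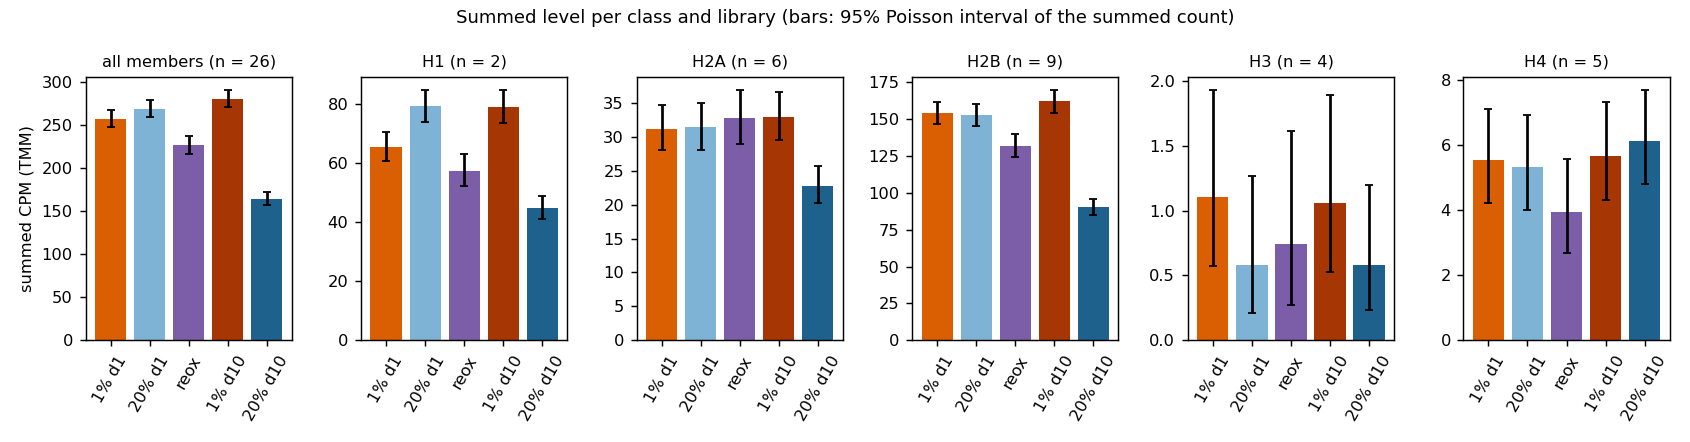
Summed level of the members of each class in CPM, 1 bar per library (reox, reoxygenated), with 95% Poisson intervals of the summed count. The 20% O2 library of day 10 is the lowest for all members, H1, H2A and H2B, at 165, 44.9, 22.8 and 90.4 CPM, while H3 and H4 stay under 7 CPM with wide intervals.

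A member was called higher or lower in a pair of libraries when its log2 CPM (prior count 2) differed by 1 or more and the exact interval of its count ratio left out 0, and the same rule was applied to all 14990 rows with 10 or more counts. After 1 day at 1% O2, 1 of 26 members was called higher and none lower, where 1.25% and 0.547% of all rows were. After 10 days at 1% O2, 2 were called higher and 1 lower, where 13.1% and 6.85% of all rows were, so on day 10 the members' counts were near the background. Their median log2 difference was 0.06 after 1 day and 0.19 after 10 days, where the medians of all rows were −0.01 and 0.02. The 2 called higher after 10 days, HIST1H2BD and HIST2H2BE, are H2B genes with documented polyadenylated forms. In the chronic minus the acute difference, 4 members were called higher and none lower, where 8.57% and 5.29% of all rows were. All 4, HIST1H1C, HIST1H2AC, HIST1H2BD and HIST2H2BE, are from that group of 5. These 5 hold 83.3% of all member counts, and 16 of 26 members had under 100 counts. At low depth a difference of this size need not be called, as for HIST1H2BC at 1.09 (−0.28 to 2.46). Calls thus also follow depth, and a link to polyadenylated forms was not tested. Without the 5 members, the chronic difference of the summed counts was 0.23 (0.03 to 0.43), against 0.88 (0.79 to 0.98) over the 5.

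**Figure D2:**
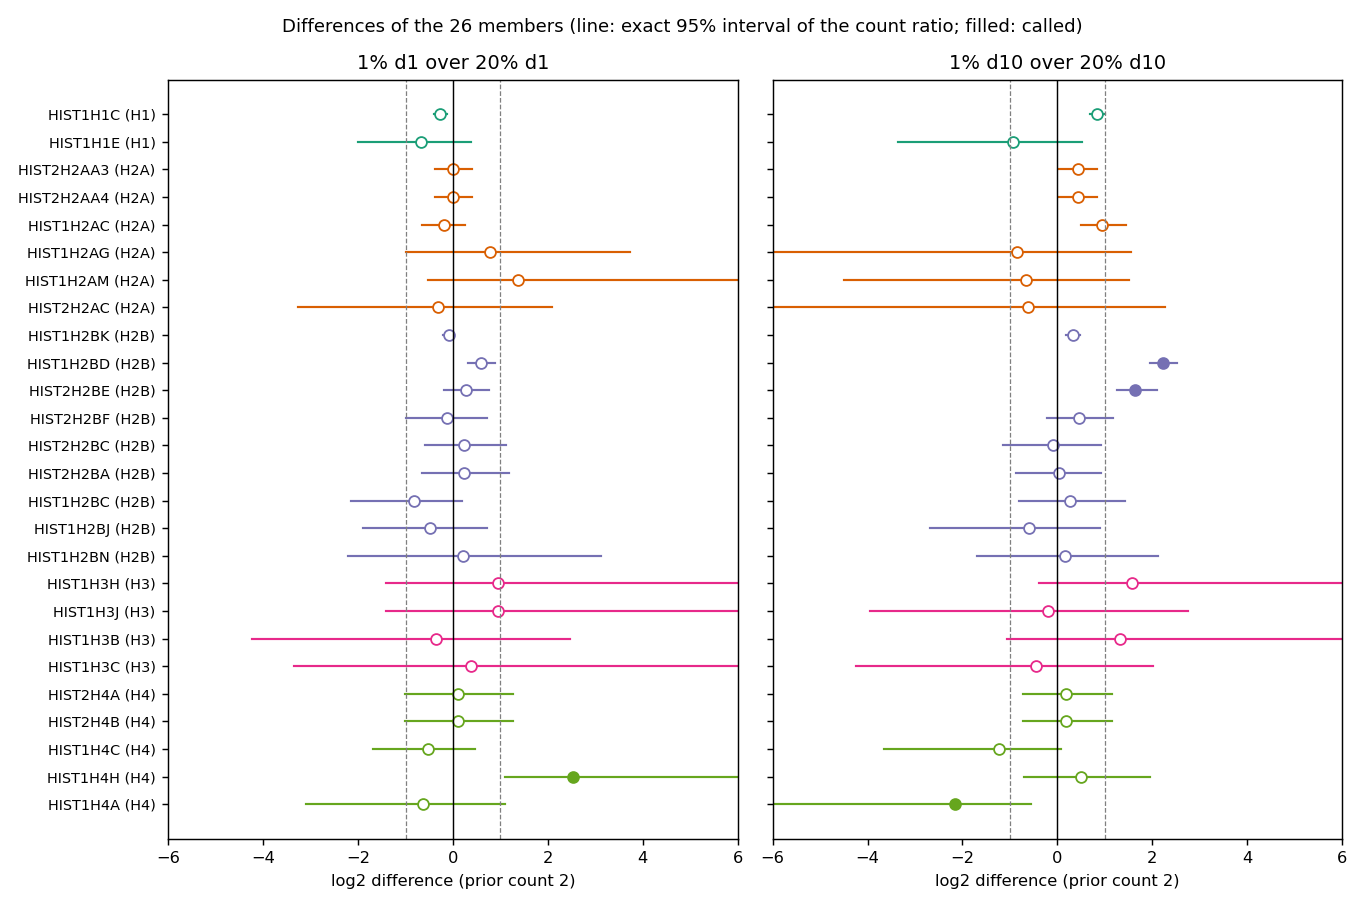
Log2 difference of each of the 26 members at 1% O2 over 20% O2 after 1 day (left) and 10 days (right); lines are exact 95% intervals of the count ratio, cut at 6, dashed lines mark 2-fold, and filled points are called. On day 10 HIST1H2BD (2.22) and HIST2H2BE (1.63) lie apart to the right, and the H3 and most H4 intervals span several units.

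HIST1H2BD, a core H2B gene (chromosome 6, 26158146 to 26171349, plus strand), had 262 counts (24.1 CPM) after 1 day at 1% O2 against 164 (15.9 CPM) at 20% O2, and 557 (53.5 CPM) after 10 days at 1% O2 against 137 (11.4 CPM) at 20% O2. Reoxygenated cells had 182 counts (22.4 CPM). Both 1% O2 libraries were above both 20% O2 libraries, and the reoxygenated library lay between them. The log2 difference was 0.60 (0.32 to 0.89) after 1 day, under the size rule, and 2.22 (1.96 to 2.52) after 10 days, or 4.65-fold. The chronic difference exceeded the acute one by 1.62 (1.23 to 2.01). Against the 20% O2 library of day 1, the 1% O2 library of day 10 was still higher by 1.74 (1.5 to 2.01). GENCODE places AL353759.1 and LARP1P1 within the bounds of this gene, and the strand setting of the counting is not given in the sources used here.

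HIST2H2BE, an H2B gene of the smaller cluster (chromosome 1, 149884459 to 149886652, minus strand), had 90 counts (8.29 CPM) after 1 day at 1% O2 against 70 (6.78 CPM) at 20% O2, and 181 (17.4 CPM) after 10 days at 1% O2 against 66 (5.47 CPM) at 20% O2. Reoxygenated cells had 93 counts (11.5 CPM). Only the library of 10 days at 1% O2 stood well apart, and the reoxygenated library was the next highest. The log2 difference was 0.28 (−0.18 to 0.76) after 1 day and 1.63 (1.25 to 2.1) after 10 days, or 3.11-fold, and 1.33 (0.95 to 1.78) when the 20% O2 library of day 1 took the place of that of day 10. Its head-to-head neighbour HIST2H2AC, an H2A gene, had 1 count after 10 days at 1% O2 and 3 counts at 20% O2, too few to show a difference.

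HIST1H2BK, the H2B member that held 38.6% of all member counts (chromosome 6, 27146418 to 27146798), behaved differently. It had 1218 counts (112 CPM) after 1 day at 1% O2 against 1236 (119.8 CPM) at 20% O2, and 841 (80.8 CPM) after 10 days at 1% O2 against 776 (64.3 CPM) at 20% O2, with 689 (84.9 CPM) in reoxygenated cells. Both day 1 libraries were above the other 3. The log2 difference was −0.09 (−0.21 to 0.02) after 1 day and 0.33 (0.19 to 0.47) after 10 days, neither of which reached 2-fold. Its annotated transcript shares 74.1% of its 50-base words with other genes, most often H2BFS, so its reads may be split with them.

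The make-up of the H2B counts does not depend on scaling between libraries. HIST1H2BD made up 15.7% of them (exact binomial interval 13.9% to 17.5%) after 1 day at 1% O2 against 10.4% (8.94% to 12%) at 20% O2, and 33.0% (30.8% to 35.3%) after 10 days at 1% O2 against 12.6% (10.7% to 14.7%) at 20% O2. HIST2H2BE made up 10.7% (9.30% to 12.3%) after 10 days at 1% O2 against 6.06% (4.71% to 7.64%) at 20% O2. HIST1H2BK made up 49.9% (47.5% to 52.3%) after 10 days at 1% O2 against 71.2% (68.4% to 73.9%) at 20% O2. In reoxygenated cells the shares were 17.0% for HIST1H2BD, 8.68% for HIST2H2BE and 64.3% for HIST1H2BK, between the 2 day 10 libraries in each case. The other 6 H2B members, among them the pseudogenes HIST2H2BA and HIST2H2BC, had 3 to 42 counts per library and none was called in any comparison given here. HIST2H2BF, the largest of them, had 42 counts after 10 days at 1% O2 against 35 at 20% O2, a log2 difference of 0.45 (−0.21 to 1.17).

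**Figure D3:**
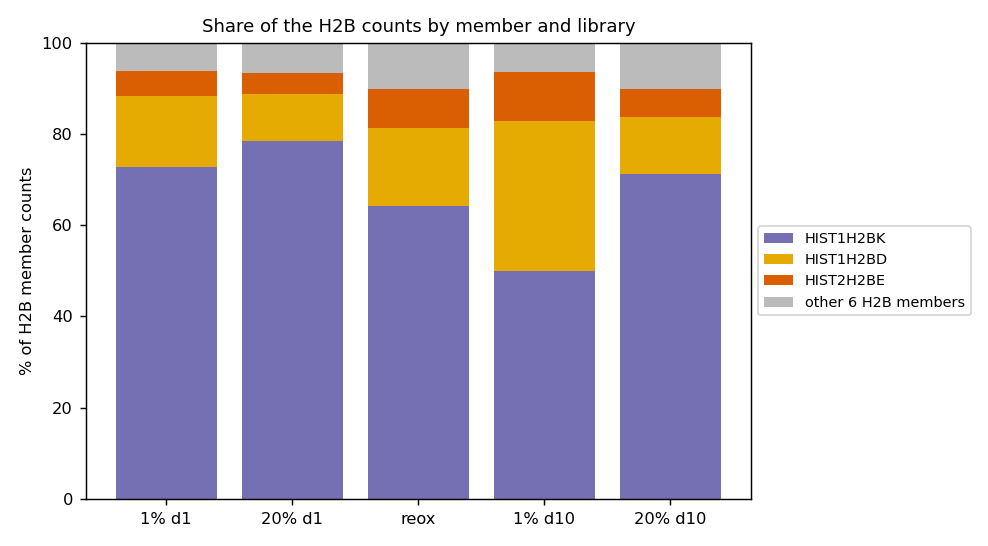
Share of the H2B member counts held by HIST1H2BK, HIST1H2BD, HIST2H2BE and the other 6 H2B members in each library, in percent. HIST1H2BD holds 33.0% after 10 days at 1% O2 and 10.4% to 17.0% in the other 4 libraries.

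The linker histones were represented by HIST1H1C, which encodes H1.2 and held 98.5% of the H1 counts (chromosome 6, 26055787 to 26056428). It had 699 counts (64.4 CPM) after 1 day at 1% O2 against 799 (77.4 CPM) at 20% O2, and 817 (78.5 CPM) after 10 days at 1% O2 against 530 (43.9 CPM) at 20% O2, with 460 (56.7 CPM) in reoxygenated cells. The level after 10 days at 1% O2 was close to that of the 20% O2 library of day 1, with a log2 difference of 0.02 (−0.12 to 0.16). The log2 difference at 1% over 20% O2 was −0.27 (−0.41 to −0.12) on day 1 and 0.83 (0.68 to 1.00) on day 10, neither 2-fold, and the chronic exceeded the acute by 1.1 (0.89 to 1.31). Between days, HIST1H1C differed by 0.29 (0.14 to 0.43) from day 1 to day 10 at 1% O2 and by −0.81 (−0.98 to −0.66) at 20% O2. HIST1H1E, which encodes H1.4, had 11 counts after 1 day at 1% O2 against 18 at 20% O2, 4 after 10 days at 1% O2 against 11 at 20% O2, and 6 in reoxygenated cells.

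**Figure D4:**
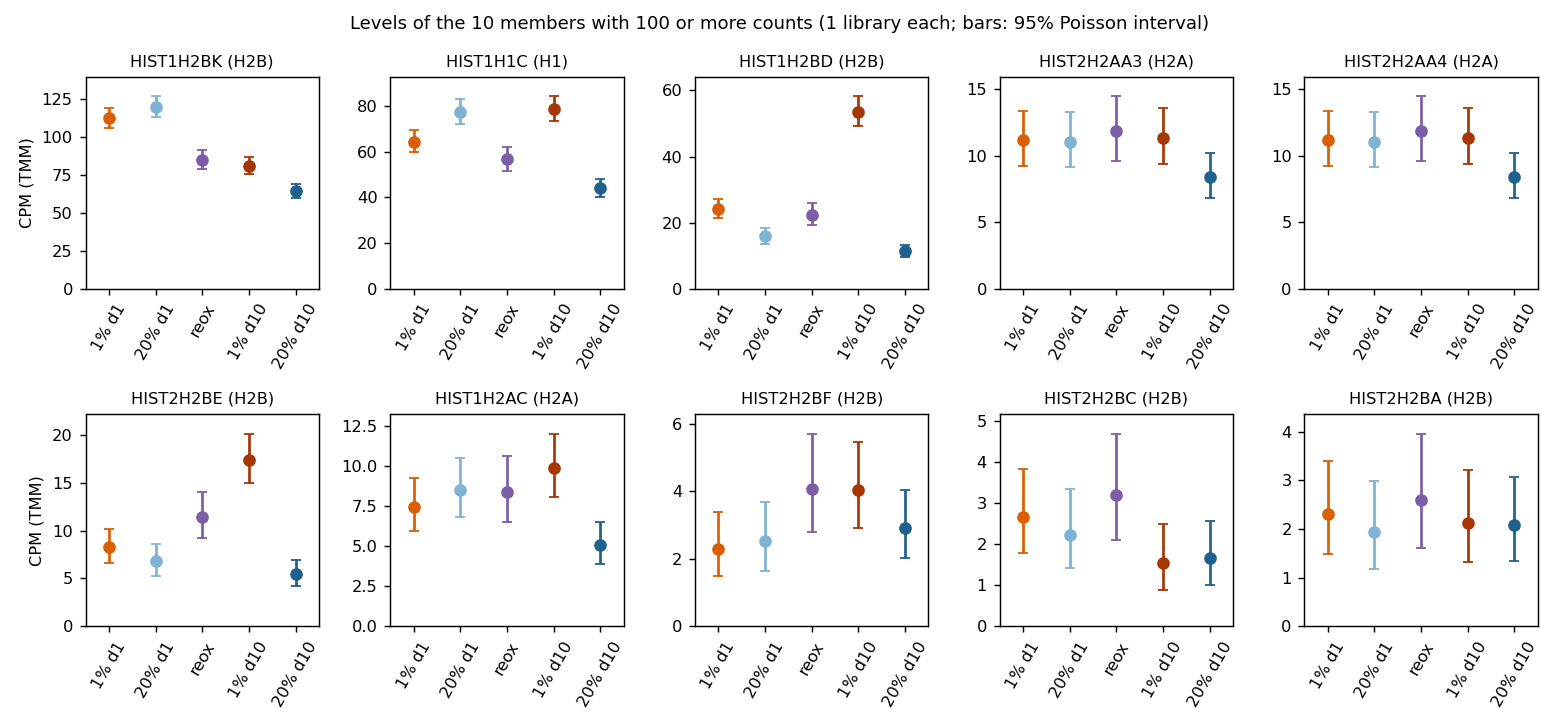
Level in CPM of the 10 members with 100 or more counts in all, in each library, with 95% Poisson intervals that cover counting error only. HIST1H2BD (53.5 CPM) and HIST2H2BE (17.4 CPM) peak after 10 days at 1% O2, while HIST1H2BK is highest on day 1 and 7 of the 10 are lowest after 10 days at 20% O2. HIST2H2AA3 and HIST2H2AA4, both among the 7, have equal values and amount to 1 measurement.

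Among the H2A genes, HIST1H2AC (chromosome 6, 26124145 to 26139116) had 81 counts after 1 day at 1% O2 against 88 at 20% O2, and 103 after 10 days at 1% O2 against 61 at 20% O2, with 68 in reoxygenated cells. Its log2 difference was −0.19 (−0.65 to 0.26) on day 1 and 0.94 (0.50 to 1.45) on day 10, just under the size rule (1.08 with library totals, which passes it), and 0.21 (−0.21 to 0.64) against the 20% O2 library of day 1. HIST1H2BC, the H2B gene that faces it, had 16 counts after 10 days at 1% O2 and 15 at 20% O2. HIST2H2AA3 and HIST2H2AA4 are a duplicated pair. They share 100% and 97.1% of their words with other genes, most often each other. Their rows held equal values, so they amount to 1 measurement. Each had 121 counts after 1 day at 1% O2 against 114 at 20% O2, 118 after 10 days at 1% O2 against 101 at 20% O2, and 96 in reoxygenated cells, a log2 difference of 0.43 (0.04 to 0.84) after 10 days. HIST1H2AG and HIST1H2AM, each with 16 counts in all, had at most 7 counts per library. HIST1H2AM overlaps HIST1H3J and shares 86.3% of its words with other genes, most often HIST1H3J. HIST2H2BA shares 73.6% of its words with other genes, most often HIST2H2BF, so these rows may trade reads.

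The H3 members HIST1H3B, HIST1H3C, HIST1H3H and HIST1H3J had 0 to 4 counts per library and none was called. Their summed counts were 12 after 1 day at 1% O2 against 6 at 20% O2, 11 after 10 days at 1% O2 against 7 at 20% O2, and 6 in reoxygenated cells. The summed log2 difference after 10 days of 0.87 had an interval of −0.63 to 2.47, so no difference was detectable at this depth.

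Calls in the H4 class rested on few counts. HIST1H4H (chromosome 6, 26277609 to 26285638) had 10 counts after 1 day at 1% O2 and none at 20% O2, at least 3.17-fold higher against a floor of 3 counts per library. The exact log2 interval of the ratio, which also carries the error of the 10 counts, began at 1.09. The 20% O2 library of day 10 also had 10 counts, so it was the day 1 library at 20% O2 that stood apart, and the library of 10 days at 1% O2 had 13. HIST1H4A (chromosome 6, 26021679 to 26021990) had 4 counts after 1 day at 1% O2 against 7 at 20% O2, none after 10 days at 1% O2 against 8 at 20% O2, and 1 in reoxygenated cells. After 10 days at 1% O2 it was at least 2.30-fold lower by the same floor, and the exact interval ended at −0.56. HIST1H4C had 14 counts after 1 day at 1% O2 against 20 at 20% O2, 4 after 10 days at 1% O2 against 14 at 20% O2, and 4 in reoxygenated cells, with a log2 difference after 10 days of −1.23 (−3.65 to 0.08) that was not called. Against the day 1 libraries HIST1H4C was called lower after 10 days at 1% O2, by −1.36 (−3.81 to −0.08) over 1% O2 and by −1.88 (−4.34 to −0.76) over 20% O2. Of all 14990 rows, 865 were called lower and 1997 higher over 1% O2, and 1217 lower and 2323 higher over 20% O2. In the pair at 1% O2, HIST1H2BD and HIST2H2BE were called higher, by 1.14 (0.94 to 1.37) and 1.05 (0.7 to 1.45). The duplicated pair HIST2H4A and HIST2H4B had 21 counts each in both day 10 libraries. Both share 97.2% or more of their words with other genes, most often each other. Over the class the chronic log2 difference of the summed counts was −0.11 (−0.63 to 0.40).

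Both 1% O2 libraries were also tested against both 20% O2 libraries with edgeR's quasi-likelihood test, with day as a second term. HIST1H2BD was the only member past an adjusted p of 0.05, where 1.61% of 14990 rows rose and 0.32% fell. Its log2 fold change was 1.43 ± 0.32 (SE, Benjamini-Hochberg adjusted p = 0.00159), and it was higher at 1% O2 on both days. The model leaves 1 residual degree of freedom and takes most of its spread from all genes. With limma-voom the adjusted p of HIST1H2BD was 0.00111, whereas DESeq2 gave 0.257 and edgeR without the day term gave 0.799, and leaving out 1 library in turn gave 2.33e-05 to 1.00. Its log2 fold change was 0.85 without the library of 10 days at 1% O2, and 1.44 with DESeq2. HIST2H2BE had a log2 fold change of 1.00 ± 0.39 (SE) and an edgeR adjusted p of 0.195, and the other 24 members had edgeR adjusted p from 0.468 to 0.987.

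The question of what persists after reoxygenation was addressed by setting the reoxygenated library against each day 10 library. Against 10 days at 1% O2, HIST1H2BD was the only member called, lower by a log2 difference of −1.25 (−1.51 to −1.01), where 10.3% of all rows were called lower and 4.51% higher. HIST2H2BE differed by −0.59 (−0.98 to −0.23), HIST1H1C by −0.47 (−0.64 to −0.30) and HIST1H2BK by 0.07 (−0.08 to 0.22). Against 10 days at 20% O2, HIST2H2BE was the only member called, higher by 1.04 (0.60 to 1.54), where 2.23% of all rows were called higher and 0.814% lower. HIST1H2BD stood at 0.97 (0.65 to 1.31) in that pair, just under the size rule, and passes it with library totals (1.1) and with DESeq2 size factors (1.01). These 2 comparisons share the reoxygenated library. Summed over all members, reoxygenated cells were 0.46 (0.37 to 0.55) above the 20% O2 library of day 10. Against the 20% O2 library of day 1, HIST1H2BD was higher by 0.49 (0.18 to 0.81) and HIST2H2BE by 0.74 (0.29 to 1.23), both short of 2-fold. HIST1H4C was the only member called in that pair, lower by −1.64 (−3.98 to −0.40). Of all 14990 rows, 188 were called lower and 666 higher there.

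Time alone, as 20% O2 on day 10 over 20% O2 on day 1, gave 1 member called higher and none lower, where 2.38% and 1.09% of all rows were. HIST1H4H was the called one, with 10 counts on day 10 and none on day 1, at least 2.85-fold higher against the floor of 3 counts. The exact log2 interval of the ratio, which also carries the error of the 10 counts, began at 0.94. The members' median log2 difference was −0.39, against 0.02 for all rows. HIST1H2BK had −0.89 (−1.03 to −0.77), HIST1H1C −0.81 (−0.98 to −0.66), HIST1H2AC −0.73 (−1.25 to −0.27) and HIST1H2BD −0.48 (−0.82 to −0.15). These shifts between libraries at the same oxygen were of the size of several chronic differences given above, with which they share the 20% O2 library of day 10.

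In 4 lists of genes that act beside the clustered histones, the median stood below 0 after 10 days at 1% O2, and in each list some genes were called lower and none higher. The DNA replication list had a median log2 difference of −0.94, with 16 of 34 genes called lower, none higher and all 34 below 0, beside 6.85% of all rows called lower. RRM2, a subunit of ribonucleotide reductase, had 115 CPM after 10 days at 1% O2 against 403 CPM at 20% O2, a difference of −1.80 (−1.89 to −1.71), and ORC1, of the origin recognition complex, had −1.81 (−2.16 to −1.52). RFC3, of the clamp loader, and CDC45, of the replicative helicase, had −1.52 and −1.50. After 1 day the list's median was −0.24 with no gene called, and in reoxygenated cells 8 of 34 were called higher than after 10 days at 1% O2 and none lower.

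Histone chaperones had a chronic median of −0.80, with CHAF1B (−1.69), ASF1B (−1.24) and HAT1 (−1.24) called lower among 16 (18.8%), none higher. CHAF1B belongs to the complex that places new H3 and H4 on replicated DNA, ASF1B hands these histones over, and HAT1 acetylates new H4. Factors of histone gene transcription and histone mRNA processing had a median of −0.61, with CCNE2, a cyclin of the entry into S phase (−1.70), and SNRPF, a core protein of the small nuclear ribonucleoproteins (−1.34), called lower among 23, none higher. That share of 8.70% was near the 6.85% of all rows. The replication-independent histone genes, most of which are expressed outside S phase and carry poly(A) tails, had a median of −0.59 over 10 genes. CENPA, the H3 variant of centromeres (−1.23), and H2AFV, an H2A.Z gene (−1.13), were called lower and none higher. Those calls were 20.0% of the list, against 6.85% of all rows. The 10 include H3F3A, whose 54 counts all lay in the 20% O2 library of day 1, and the median over the 9 genes with a count on day 10, computed after the values were seen, was −0.71. All 4 medians lay below 0, whereas that of the clustered histone members lay at 0.19.

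**Figure D5:**
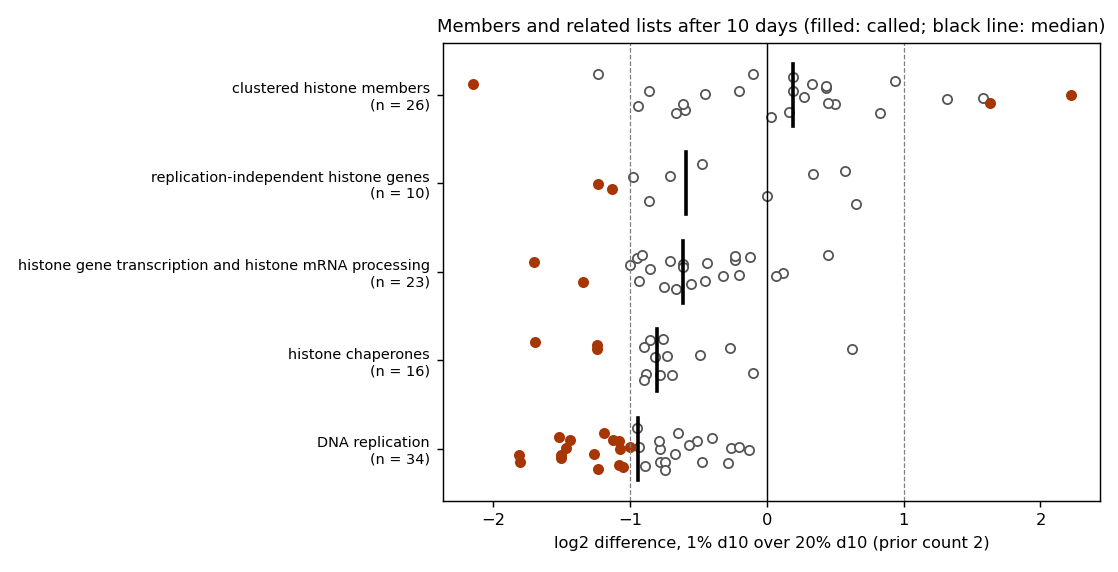
Log2 difference after 10 days at 1% O2 over 20% O2 for the 26 members and for the genes with 10 or more counts in 4 related lists; filled points are called, black lines are medians and dashed lines mark 2-fold. The medians run from −0.59 to −0.94 in the 4 lists and stand at 0.19 for the members, of which HIST1H2BD and HIST2H2BE lie farthest right.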

How the data were processed

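RNA of MDA-MB-231 cells was sequenced in 5 libraries, 1 per condition. The authors deposited expected counts per gene symbol, estimated and not normalized. A second deposited table holds a TMM-normalized signal, as its name and values show, and was used here only as an alternative. The build was hg38 and the tools were Bowtie2 (2.1.0), RSEM (1.2.15) and edgeR, per the submitters' processing notes. Neither annotation nor strand setting is given in the sources used here.

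Expected counts were rounded, which changed 24 of 130 member values. Rows with a total of 10 or more counts (14990) were scaled with TMM factors (edgeR 4.0.16, R 4.3.3), and log2 CPM used a prior count of 2. Exact Clopper-Pearson 95% intervals of count ratios and Poisson intervals of levels cover counting error only; reads without molecular identifiers may make them too narrow. The interval of the chronic minus the acute difference is normal, from Poisson errors. The oxygen term used edgeR's quasi-likelihood test on 4 libraries with day as covariate and Benjamini-Hochberg adjustment at 0.05 (1 residual degree of freedom, 1130 prior degrees, common dispersion 0.0507). The labels do not say that libraries are separate cultures, and its p-values therefore speak only to the spread among them. DESeq2 1.42.0 and limma 3.58.1 served as alternatives. Scripts were tested on simulated data.

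Named members were the 4 of most counts per class, those called after 10 days or on reoxygenation, those past the oxygen test and those at the edge of the count rule; list genes were up to 4 per list with the largest chronic difference among the called. HIST1H2BC, HIST1H2BJ, HIST2H2BA, HIST2H2BC and HIST2H2AC are named beside them and were chosen after their values were seen. Members, lists and tests were chosen with earlier results of these data known. Shared 50-base words were counted in GENCODE 29 transcripts.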

Additional observations from a re-analysis of the deposited data

Results flagged for a closer look

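HIST1H1C had chronic and acute log2 differences of opposite sign, 0.83 (0.68 to 1.00) after 10 days and −0.27 (−0.41 to −0.12) after 1 day, a gap of 1.1. The summed H1 counts, which are nearly all HIST1H1C, gave 0.82 (0.66 to 0.97) and −0.28 (−0.42 to −0.13), a gap of 1.09. With 1 library per condition the difference between days was not tested, and it involves the 20% O2 library of day 10, in which HIST1H1C had 43.9 CPM against 77.4 CPM in the 20% O2 library of day 1.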

How the results depend on the processing

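Counting depth limits the 16 of 26 members with under 100 counts, and with 1 library per condition no spread between cultures could be measured. Of 220 summary values recomputed, 158 stayed within 1.5 times (counts) or within their interval (sums), 9 of them with a change of sign near 0. The other 62 are given below, 10 of them turned in sign. Of 432 medians and single members, 423 stayed likewise, 2 of them with a change of sign near 0. A minimum of 100 counts leaves out HIST1H4A and HIST1H4H, and 1 CPM in a library leaves out HIST1H4A, so their calls are not made there. HIST1H2BD and HIST2H2BE passed the chronic rule under both other scalings, both other filters and the other prior count. Members called higher after 1 day came to 0 with 100 or more counts and 2 by size alone (384 of all 14990 rows). After 10 days, size alone gave 4 higher and 2 lower, where 2214 and 1118 of all 14990 rows were. With 100 or more counts 0 members were lower (943 of 12262 rows), and likewise with 1 CPM in a library (1008 of 13940 rows). Against the 20% O2 library of day 1, 3 were higher (HIST1H2BD, HIST2H2BE and HIST1H4H) and 3 lower (HIST1H1E, HIST1H4A and HIST1H4C). Of all 14990 rows, 2323 were called higher and 1217 lower in that pair. The pooled difference there was 0.06, and H1, H2A and H2B stood at 0.00, 0.07 and 0.09. Size alone also gave 5 lower for chronic minus acute (1009 of all rows). It gave 2 lower for reoxygenated over 1% O2 (1857 of all rows), where a prior count of 0.5 gave 1 higher (702 of all rows). For reoxygenated over 20% O2 size alone gave 3 higher and 1 lower (596 and 339 of all rows). Library totals and DESeq2 size factors each gave 2 higher there (487 and 377 of all rows). For time, size alone gave 2 higher and 1 lower (554 and 279 of all rows), and 100 or more counts left 0 higher.

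Library totals moved the median of all rows to 0.16 (chronic) and 0.11 (chronic minus acute), and the share of calls that were higher to 78.4% and 75.9%, beside 65.7% and 61.8%. For reoxygenated over 20% O2 that share was 84.4%, beside 73.3%. A minimum of 100 counts gave 55.6% (chronic) and 80.6% (acute, beside 69.5%). Pooled values with library totals were 0.91 (chronic), 0.96 (chronic minus acute) and 0.59 (reoxygenated over 20% O2), and H2B was 0.99 (chronic) and 0.68 (reoxygenated over 20% O2).

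Without HIST1H2BK, the pooled difference was 0.99 (chronic), 1.03 (chronic minus acute), −0.49 (reoxygenated over 1% O2) and −0.57 (time). The H2B sum was then 0.35 (acute), 1.64 (chronic), 1.29 (chronic minus acute), −0.78 (reoxygenated over 1% O2), 0.86 (reoxygenated over 20% O2) and −0.34 (time). Without the 5 polyadenylated members, the pooled difference was 0.23 (chronic), 0.22 (chronic minus acute), 0.09 (reoxygenated over 1% O2), 0.32 (reoxygenated over 20% O2) and −0.24 (time). The H2B sum was then −0.10 (acute), 0.16 (chronic), 0.26 (chronic minus acute), 0.37 (reoxygenated over 1% O2) and −0.16 (time). Without HIST1H1C, the H1 sum is HIST1H1E alone, at −0.78 (acute), −1.25 (chronic), −0.46 (chronic minus acute), 0.94 (reoxygenated over 1% O2) and −0.30 (reoxygenated over 20% O2); the cause was not tested. With members at 0 set to a floor of 3 counts, and those with no fold left out, the members' medians were 0.06 (acute), 0.19 (chronic), −0.13 (chronic minus acute), 0.01 (reoxygenated over 1% O2), 0.17 (reoxygenated over 20% O2) and −0.34 (time), beside 0.06, 0.19, 0.01, 0.03, 0.32 and −0.39.

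For the oxygen term, DESeq2 and edgeR without the day term called 0 members (42 and 0 rows, beside 289), and edgeR with 1 CPM in at least 2 libraries called 99 rows. Leaving out 1 library in turn, which drops the day term and assumes that a lone library varies like the others, gave 0 to 3 members and 0 to 5200 rows. It gave 3 (HIST1H2BD, HIST1H4A and HIST2H2BE) only without the 1% O2 library of day 1. No paired analysis was possible because each condition had 1 library and no replicate numbers link libraries; day, as a term, matches them in the oxygen test.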

Other observations

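The 47 clustered histone rows with a total under 10 held 27 counts in all after 1 day at 1% O2 against 29 at 20% O2, and 14 after 10 days at 1% O2 against 16 at 20% O2, with 11 in reoxygenated cells. Their summed log2 difference after 10 days was 0.02 (−1.12 to 1.15).

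Among the replication-independent histone genes, the linker histone genes H1F0, which encodes H1.0 and is known from cells that have stopped dividing, and H1FX stood above 0 after 10 days. They were picked after their values were seen. H1F0 had 579 CPM after 10 days at 1% O2 against 391 CPM at 20% O2, a log2 difference of 0.57 (0.51 to 0.62). H1FX had 159.8 CPM after 10 days at 1% O2 against 101 CPM at 20% O2, a difference of 0.65 (0.55 to 0.76). On day 1, H1FX had 133 CPM at 1% O2 and 148 CPM at 20% O2, and H1F0 had 412 and 426 CPM. Between the 20% O2 libraries, day 10 over day 1, H1FX differed by −0.55 (−0.66 to −0.44) and H1F0 by −0.12 (−0.18 to −0.06). Reoxygenated cells had 336 CPM of H1F0 and 108 CPM of H1FX.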
